A study of Mus musculus with 12 samples.

Results

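The mitochondrial respiratory chain genes described here are the nuclear genes whose platform symbol begins with Nduf (complex I and some of its assembly factors), Sdh (complex II), Uqcr (complex III), Cox4 to Cox8 (complex IV) or Atp5 (complex V). A probe set was taken only if the platform annotation gave it 1 gene symbol. This gave 179 of 45101 probe sets and 90 of 18193 genes. The brightest 60% of probe sets were tested, and 154 of the members' probe sets and 84 of their genes were among them. The 6 genes that were not are Ndufb1, Ndufb4, Cox4i2, Cox6a2, Cox8b and Cox8c. The 84 genes comprised 34 of complex I, 8 complex I assembly factors, 4 of complex II, 8 of complex III, 13 of complex IV and 17 of complex V.

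The respiratory chain sits in the inner mitochondrial membrane. Complexes I and II pass electrons from NADH and succinate to coenzyme Q, complex III passes them on to cytochrome c, and complex IV hands them to oxygen. Complexes I, III and IV pump protons as they do so, and complex V, the ATP synthase, makes ATP as the protons flow back. Most subunits are encoded in the nucleus, while a small core of complexes I, III, IV and V is encoded by mitochondrial DNA. Neural progenitors of the embryonic cortex are known to lean on glycolysis more than neurons do, and neurons on oxidative phosphorylation.

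Each sample was RNA of C57BL/6 mouse cells, sorted after a knockdown of the zinc finger protein ZNF335 (mouse gene Zfp335) at embryonic day 14.5 or after a control knockdown, and the source name of the controls calls them neurons. There were 3 samples in each of 4 groups: long term knockdown and long term control (5 days after knockdown), and short term knockdown and short term control (1 day after). The design text names short hairpin RNA where the titles name small interfering RNA, and the labels do not say what drove it or which gate sorted the cells. Every sample carries stage embryonic day 15.5 and harvest at postnatal day 0 in its labels. For the 6 long term samples the description text contradicts the titles and source names as to the arm; the titles and source names were followed here. The labels do not tie the samples to separate animals or cultures, and the p-values below take the spread among the arrays as it is, which may be technical.

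Levels below are log2 of the quantile normalised probe set intensity plus 16, on an arbitrary scale that serves to compare arrays within 1 gene. Zfp335, read by 1 probe set, had deposited intensities of 103, 34.3 and 151 on the long term knockdown arrays, against 109, 150 and 179 on the long term control arrays. At 1 day it had 136, 53.7 and 41.0 on the knockdown arrays, against 139, 46.1 and 127 on the control arrays. The groups overlapped at both times, so the targeted transcript does not check the labels. Long term knockdown replicate 2 stood apart in RNA quality: its ratio of 3′ to 5′ control probe sets was 8.76 for Actb and 3.90 for Gapdh, against 1.51 to 2.91 and 1.65 to 2.22 on the other 11 arrays. On those 11 the Actb ratio was 2.09 to 2.91 at 1 day and 1.51 to 1.93 at 5 days, so it differed with time. The short term arrays fell into sets by the brightness of the hybridisation controls, RNAs added after labelling: knockdown 1, control 1 and control 3 were the weak set and knockdowns 2 and 3 and control 2 the strong set. All short term arrays came from a single chip lot and the long term arrays from others, so time and lot cannot be told apart. The instrument records give station 7 for the short term knockdowns and 8 for the short term controls. Station and arm therefore cannot be told apart at 1 day. At 5 days the station was 4 for the knockdowns and control 1, and 5 for controls 2 and 3. Time is thus tied to station too. Scanner 1, as numbered here, read all short term arrays and long term controls 2 and 3, and scanner 2 the other long term arrays. In knockdown cells time and scanner cannot be told apart. The arrays' trimmed mean intensities were 451 to 529 at 5 days and 186 to 239 at 1 day before normalisation. All 10 listed markers of postmitotic neurons passed the filter, as did all 9 of apical and all 5 of intermediate progenitors. So did 11 of 12 microglial, 14 of 15 endothelial and pericyte and 3 of 4 astrocyte markers. Of 4 erythroid genes on the array 0 passed, and of 8 striated muscle genes 1. Passing the filter does not tell which cells were sorted.

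Promoter sequences from RefSeq (GRCm38.p6, 250 bases before to 50 after the start site) were at hand for 74 member genes with 79 start sites. The windows were searched on both strands for core motifs of regulators known to bind respiratory chain promoters: NRF-1 (GCGCATGC), the ETS factor GABP, also called NRF-2 (CCGGAAGT), and YY1 (AAGATGGC). The NRF-1 core was found in 13.9% of member windows and 2.71% of all 32851 windows of the table. The YY1 core was in 12.7% and 2.75%, and the ETS core in 6.33% and 3.89%. At least 1 of the 3 was in 31.6% of member windows and 8.83% of all windows. NRF-1 matches can overlap on the opposite strands, since the motif is close to its own reverse complement. A match describes letters and is not a binding site, and the motifs were chosen with results of these data known.

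4 promoters are printed with their matches in capitals, 5′ to 3′ in the sense of the gene. Atp5l and Atp5j2, which encode subunits of the membrane part of complex V, and Cox8a, a small subunit of complex IV, are shown because Atp5l was higher and the other two lower on every long term array than on every short term array in the quantile normalised values described below. Uqcr11, a small subunit of complex III, is shown because it holds both an ETS and an NRF-1 core. In Atp5l (chr9:44920693-44920992, minus strand) the match is an NRF-1 core that begins 240 bases before the start site. In Atp5j2 (chr5:145191492-145191791, minus strand) it is a YY1 core that begins at base 24 after the start. Cox8a (chr19:7217567-7217866, minus strand) has ETS cores beginning 6 bases before the start and at base 32 after it. Uqcr11 (chr10:80406772-80407071, minus strand) has an ETS core 66 bases and an NRF-1 core 4 bases before the start.
Atp5l: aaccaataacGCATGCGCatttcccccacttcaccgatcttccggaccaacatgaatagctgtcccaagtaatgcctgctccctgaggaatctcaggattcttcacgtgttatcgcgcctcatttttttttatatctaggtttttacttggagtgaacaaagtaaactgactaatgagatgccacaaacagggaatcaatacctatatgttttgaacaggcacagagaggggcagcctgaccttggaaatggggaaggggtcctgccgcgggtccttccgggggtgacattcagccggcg
Atp5j2: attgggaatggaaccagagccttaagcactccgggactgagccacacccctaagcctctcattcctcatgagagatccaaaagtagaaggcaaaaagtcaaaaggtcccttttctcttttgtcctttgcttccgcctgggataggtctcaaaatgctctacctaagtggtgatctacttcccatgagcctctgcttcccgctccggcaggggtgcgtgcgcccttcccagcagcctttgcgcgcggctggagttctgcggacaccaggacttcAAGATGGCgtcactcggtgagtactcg
Cox8a: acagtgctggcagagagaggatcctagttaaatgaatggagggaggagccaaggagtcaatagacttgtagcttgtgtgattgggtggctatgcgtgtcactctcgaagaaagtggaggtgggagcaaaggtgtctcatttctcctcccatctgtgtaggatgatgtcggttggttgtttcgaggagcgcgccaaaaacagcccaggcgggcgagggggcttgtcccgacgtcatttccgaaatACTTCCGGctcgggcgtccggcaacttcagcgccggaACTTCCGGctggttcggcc
Uqcr11: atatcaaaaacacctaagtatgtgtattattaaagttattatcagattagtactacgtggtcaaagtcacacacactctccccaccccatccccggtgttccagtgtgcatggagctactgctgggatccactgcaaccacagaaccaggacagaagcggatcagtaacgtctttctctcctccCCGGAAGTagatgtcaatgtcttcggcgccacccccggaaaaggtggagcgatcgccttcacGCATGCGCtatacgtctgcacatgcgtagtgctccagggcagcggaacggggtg

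At 5 days, most respiratory chain genes were lower in the knockdown mean than in the control mean, and 1 array held most of this difference. Of the 84 genes, 69 had a lower mean on the long term knockdown arrays, with a median log2 fold change of -0.20, while 48.3% of all 12388 genes were lower and their median was 0.01. In such bulk RNA, fewer cells of a type and less RNA per cell cannot be told apart. No member passed an adjusted p of 0.05 (limma over all tested probe sets, Benjamini-Hochberg), and 0% of all genes did in either direction. The smallest adjusted p of a member was 1.0, and 0 members and 12 of all genes had an unadjusted p under 0.05. In no member did the knockdown arrays lie wholly below the control arrays, or wholly above, which 1.69% and 1.63% of all genes did. Without long term knockdown replicate 2, 44 of 84 members (52.4%) were lower, the share over all genes was 51.9%, and the members' median was -0.0033. With the scanner as a block, where control replicate 1 is the only control scanned with the 3 knockdowns, the median was -0.03. All 5 intermediate progenitor markers were also lower at 5 days, by a median of -0.62 with 0 called; their mean log2 level was 9.12, 8.79 and 9.39 on the knockdown arrays, below the 9.60, 9.69 and 9.64 on the control arrays. The part of this in the members' values was not tested.

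By array, the members' median deviation from their own 12-array mean was -0.04, -0.66 and -0.13 on the long term knockdown arrays and -0.25, -0.04 and 0.04 on the long term control arrays. Only replicate 2 of the knockdowns lay outside the controls' range. All genes together deviated by 0.07, 0.12 and 0.08 on the knockdown arrays and 0.04, 0.09 and 0.13 on the control arrays, so all genes together were not low on that array. Against the mean of the other long term knockdowns, 67 of 84 members were lower on it, with a median difference of -0.58, and 23 (27.4%) were lower by more than 1 log2 unit, as were 12.5% of all genes.

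**Figure D1:**
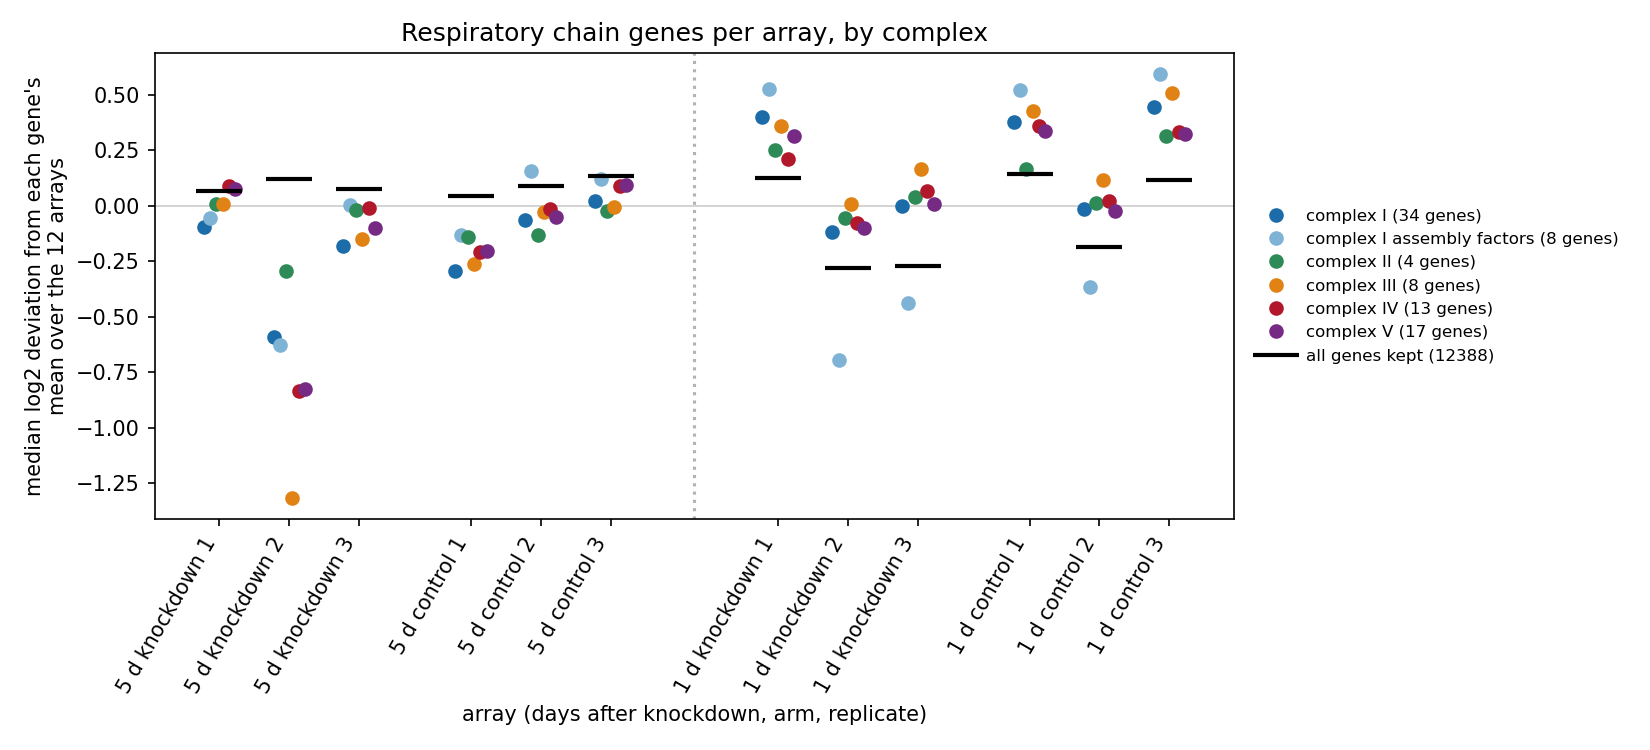
Median log2 deviation of each complex (coloured points) and of all 12388 genes (black bars) from each gene's mean over the 12 arrays, per array. On long term knockdown replicate 2 complex III lies at -1.32 and complexes IV and V at -0.84 and -0.83, while all genes lie at 0.12; on the short term side the weak set (knockdown 1, controls 1 and 3) lies above the strong set in every complex.

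The complexes were not equally low on that array. Its median difference from the other long term knockdowns was -1.40 for complex III, where 5 of 8 genes were lower by more than 1, -0.79 for complex IV, -0.77 for complex V, -0.64 for the assembly factors, -0.46 for complex I and -0.15 for complex II. The genes lowest on it were Atp5g1, one of the genes of the c-ring subunit of complex V (-2.39), Cox6b2, the testis isoform of a complex IV subunit (-2.31), Uqcr11 (-2.07), Atp5e, the epsilon subunit of complex V (-1.92), and Ndufb10 (-1.83), an accessory subunit of complex I. Higher on it were Cox7b2 (1.05) and Cox7c (0.92), small subunits of complex IV. The high 3′ to 5′ ratios belong to the same array, and their part in these differences was not tested.

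Different probe sets for 1 gene gave different sizes, and in some genes different signs, on that array. Over the 45 genes with several tested probe sets, the differences from the other long term knockdowns spanned a median of 0.59 log2 units within a gene and more than 1 in 13 genes. Ndufs8, an iron-sulphur subunit of complex I, had 6 tested probe sets, which gave differences of -3.28 to -1.08. Sdhd, a membrane anchor of complex II, gave -1.61 with one probe set and 0.09 with its brighter one. The sizes above are those of the brightest probe set of each gene.

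**Figure D2:**
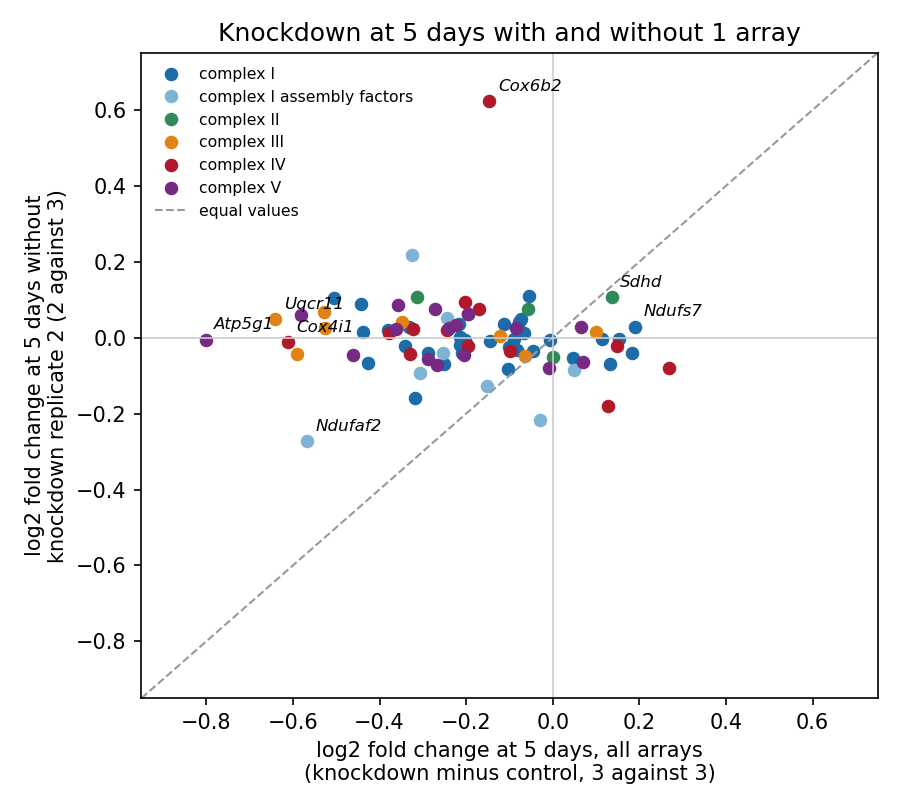
Log2 fold change at 5 days (knockdown minus control) of each of the 84 genes with all arrays (horizontal axis) and without knockdown replicate 2 (vertical axis), coloured by complex; the dashed line marks equal values. Atp5g1 moves to -0.0055 and Cox4i1 to -0.01 without that array, and most points lie near the zero line.

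Complex I, the NADH dehydrogenase, had 28 of 34 genes lower on the long term knockdown arrays with a median of -0.13, which was -0.0057 without replicate 2. Its catalytic core genes overlapped between arms. Ndufs1, which holds iron-sulphur clusters, had levels of 10.08, 10.04 and 10.06 on the long term knockdown arrays and 10.14, 10.11 and 10.05 on the control arrays, a difference of -0.05 ± 0.17 (SE, n = 3 each, 95% interval -0.43 to 0.33). These 6 arrays were nearly level. Ndufs8 read 10.50, 9.29 and 10.25 on the knockdown arrays and 10.12, 10.40 and 10.53 on the control arrays. Replicate 2 was the lowest of the 6. The brightest probe set of Ndufs7 went the other way on replicate 2, with 10.83, 11.30 and 10.80 on the knockdown arrays and 10.62, 10.80 and 10.94 on the control arrays. Against the other long term knockdowns it gave 0.48 on replicate 2, while the gene's other tested probe set gave -0.70. The probe sets of Ndufs7 therefore disagree in direction on that array. Of the other core subunits, Ndufs3 differed by -0.07, the flavoprotein subunits Ndufv1 and Ndufv2 by -0.10 and -0.01, and none passed the test.

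The 8 Nduf assembly factors, which help build complex I and are not part of it, had a median of -0.25, which was -0.09 without replicate 2. Ndufaf2 was lowest in the long term knockdown mean at -0.57 ± 0.45 (SE), with levels of 9.12, 8.28 and 9.20 against 9.10, 9.54 and 9.67 on the control arrays. It was still at -0.27 without replicate 2.

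Complex II, succinate dehydrogenase, is also an enzyme of the citric acid cycle and has no mitochondrially encoded subunit. Its median at 5 days was -0.03 with all arrays and 0.09 without replicate 2. The flavoprotein Sdha differed by -0.06 ± 0.19 and the iron-sulphur subunit Sdhb by 0.0017 ± 0.26. Of the membrane anchors, Sdhc had 10.45, 9.13 and 10.33 on the knockdown arrays against 10.14, 10.33 and 10.38 on the control arrays, and Sdhd 10.75, 10.75 and 10.58 against 10.50, 10.52 and 10.64. For Sdhc replicate 2 lay below the other 5 arrays, and for Sdhd the arms overlapped.

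Complex III, the cytochrome bc1 complex, had the lowest median of the 6 groups of genes at 5 days, -0.44, and 0.02 without replicate 2. Uqcr11 had levels of 9.997, 7.82 and 9.77 on the long term knockdown arrays and 9.57, 9.92 and 10.02 on the control arrays. Its log2 fold change was -0.64 ± 0.52 (SE, n = 3 each) with all arrays and 0.05 without replicate 2. Uqcrh, the hinge protein, gave -0.59 with that array and -0.04 without it. The core protein Uqcrc1 and the Rieske iron-sulphur protein Uqcrfs1 differed by -0.53 and -0.12, and the other core protein, Uqcrc2, by 0.10 ± 0.18. Without replicate 2 these were 0.02, 0.0039 and 0.01.

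Complex IV, cytochrome c oxidase, has several subunits with tissue isoforms. Cox4i1, the general isoform of subunit 4, had 11.96, 10.05 and 11.74 on the long term knockdown arrays and 11.71, 11.90 and 11.98 on the control arrays, a fold change of -0.61 ± 0.44 (SE) that was -0.01 without replicate 2. The alternative isoform Cox4i2 did not pass the filter, nor did the muscle isoforms Cox6a2 and Cox8b, or Cox8c. Their general counterparts Cox6a1 and Cox8a passed and differed by -0.32 and -0.24 at 5 days, with overlapping arrays. The heart and muscle isoform Cox7a1 differed by -0.20 and its general counterpart Cox7a2 by -0.33. Cox7a2l, which helps join complexes III and IV into supercomplexes, differed by -0.20. Cox6b1 and Cox6b2 gave -0.38 and -0.15, and Cox6b2 gave 0.62 without replicate 2, the largest value of any member in that comparison. Cox5a and Cox5b gave -0.17 and -0.10. Ndufa4, named as a complex I gene and known as a subunit of complex IV, gave -0.43 ± 0.33, and Ndufa4l2, its hypoxia-induced paralog, 0.15 ± 0.41.

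Complex V, the ATP synthase, had 15 of 17 genes lower at 5 days with a median of -0.24, and 7 of 17 lower with a median of 0.03 without replicate 2. Atp5g1 had 10.79, 8.12 and 10.22 on the long term knockdown arrays and 10.28, 10.70 and 10.56 on the control arrays, a fold change of -0.80 ± 0.63 (SE, 95% interval -2.19 to 0.59). Replicates 2 and 3 lay below every control array, replicate 2 far below and replicate 3 just below (10.22 against 10.28). Atp5e gave -0.58 with all arrays and 0.06 without replicate 2. The catalytic subunits Atp5a1 and Atp5b and the central stalk subunit Atp5c1 gave 0.07, -0.19 and -0.08 with all arrays.

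At 1 day, 75 of 84 members were lower in the knockdown mean than in the control mean, with a median log2 fold change of -0.16, close to the median of all genes, -0.17 (66.9% of them lower). No member passed the threshold, and 0% of all genes did; in no member did the arms separate, while 1.19% of all genes had every knockdown array below every control array and 0.492% above. The smallest adjusted p of a member was 0.828, and 0 members and 44 of all genes had an unadjusted p under 0.05. The 3 knockdowns held 1 array of the weak set and the 3 controls held 2, and the arms differed in station. Within the weak set the members' median difference was 0.0072, and within the strong set -0.06.

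The medians split by set rather than by arm. Members deviated by 0.38, -0.11 and 0.01 on the short term knockdown arrays and by 0.36, -0.0020 and 0.38 on the short term control arrays. In 76 of 84 genes the weak set averaged higher than the strong set, by a median of 0.40, and in 65 (77.4%) the 3 weak arrays all lay above the 3 strong ones, as in 52.6% of all genes. All genes differed by a median of 0.39. Assembly factors differed most, by a median of 1.06. What the sets are in the laboratory is not given in the labels, and their part in the comparison at 1 day was not tested beyond these within-set values.

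The members with the lowest values at 1 day followed the same split. Uqcrc1, the member with the lowest value, had 9.96, 8.74 and 9.07 on the short term knockdown arrays and 10.21, 9.27 and 10.16 on the control arrays, a difference of -0.62 ± 0.49 (SE, n = 3 each). Cox7c gave -0.59 ± 0.50, from 8.88, 7.19 and 7.33 on the knockdown arrays and 8.68, 7.84 and 8.66 on the control arrays. In both genes the weak arrays were the high ones. Cox7b2 and Ndufa4l2 ran against the rest: Cox7b2 had 6.69, 8.73 and 8.60 on the knockdown arrays and 6.14, 8.45 and 7.18 on the control arrays, and Ndufa4l2 6.01, 7.70 and 7.39 against 5.93, 6.66 and 6.38. Their fold changes were 0.75 ± 0.68 and 0.71 ± 0.41, and the weak arrays were low in both. All 11 tested microglial markers were also lower in the knockdown mean at 1 day, with a median of -0.98 and 0 called. Their mean log2 level was 7.33, 5.60 and 5.62 on the knockdown arrays and 8.003, 5.79 and 7.76 on the control arrays. The weak arrays were the high ones here too.

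The difference between the knockdown effects at 5 days and 1 day was not detected in any member or in any gene (0% past the threshold, smallest adjusted p 1.0; 0 members and 15 of all genes had an unadjusted p under 0.05). Its median over members was -0.03 with all arrays and 0.17 without long term knockdown replicate 2, beside 0.13 and 0.18 over all genes. The 2 knockdown comparisons share no samples.

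**Figure D3:**
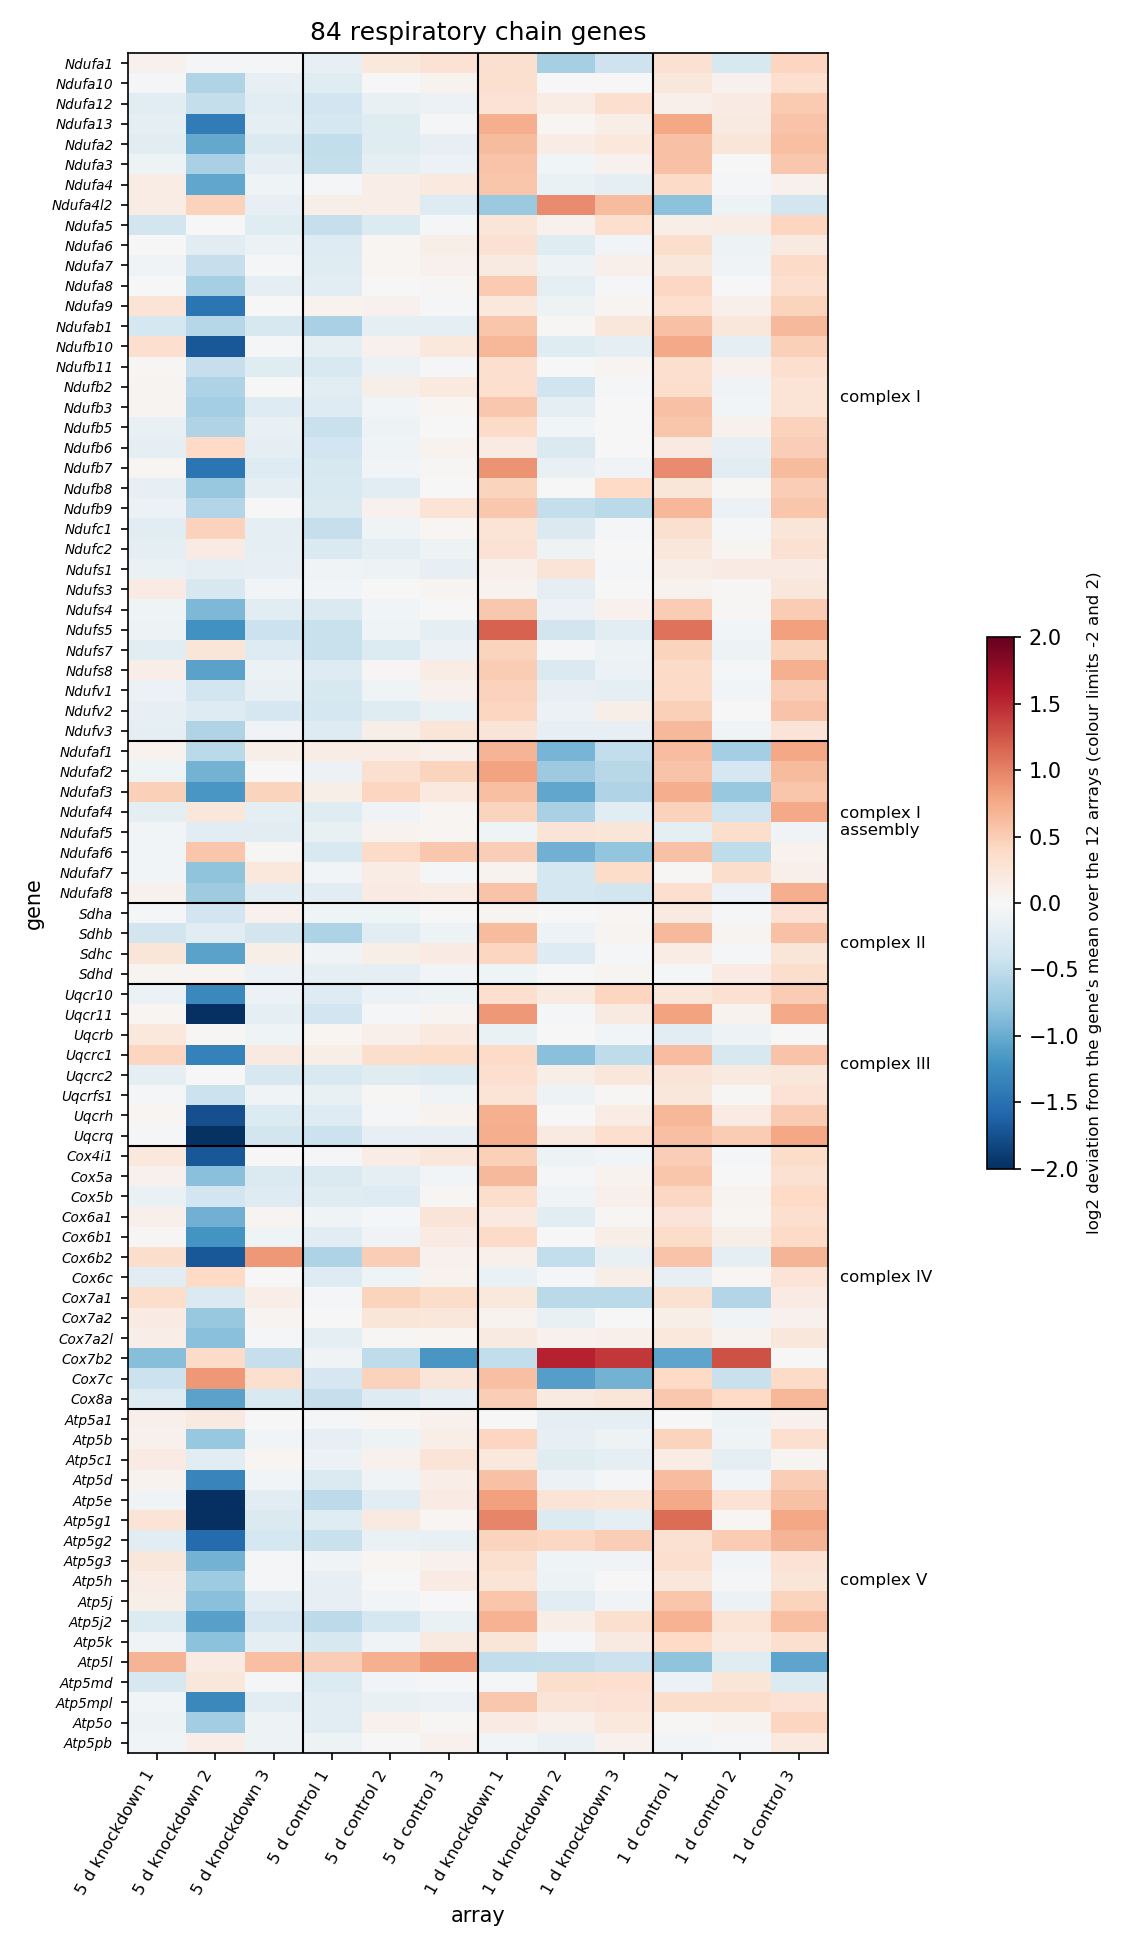
Log2 deviation of each of the 84 genes (rows, by complex) from its mean over the 12 arrays (columns); red is above and blue below the mean. Members above their mean number 38, 16 and 18 of 84 on the long term knockdown arrays, 7, 37 and 55 on the long term control arrays, 74, 25 and 46 on the short term knockdown arrays and 74, 42 and 78 on the short term control arrays. Most rows are bluer at 5 days; Atp5l is among the rows that are redder there.

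Set against 1 day, the respiratory chain genes at 5 days had lower medians than all genes in both arms. In knockdown cells 66 of 84 members had a lower mean on the long term than on the short term arrays, with a median of -0.33, while the median of all genes was 0.21. In control cells it was 74 of 84 with a median of -0.31, beside 0.06 over all genes (46.3% lower). In 23 members (27.4%) every long term knockdown lay below every short term knockdown, as in 9.72% of all genes. In 33 members (39.3%) every long term control lay below every short term control, as in 14.3% of all genes.

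Few members passed the test. In knockdown cells 0 members passed in either direction, against 5.56% of all genes higher and 2.38% lower, and 15 of 84 members had an unadjusted p under 0.05, as did 3638 of 12388 genes. In control cells 1 member passed with a higher level on the long term arrays, while 2.53% of all genes did, and 0 passed with a lower level, while 1.57% of all genes did. There 13 of 84 members had an unadjusted p under 0.05, as did 2543 of 12388 genes.

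The sign of the shift depends on the scaling, and its sign relative to all genes did not change with the settings run. Before normalisation Cox8a, for example, had intensities of 2070, 1010 and 1918 on the long term knockdown arrays and 1083, 997 and 1042 on the short term ones, and of 1797, 1818 and 2026 on the long term control arrays and 1181, 1191 and 1141 on the short term ones, so it was mostly brighter at 5 days. With arrays scaled to a common median the members' medians were 0.66 in knockdown and 0.76 in control cells, where all genes were at 1.04 and 0.96, and 19 and 20 members were then called higher and 0 lower, with 48.2% and 42.7% of all genes called higher. With no scaling the medians were 0.81 and 0.91, beside 1.18 and 1.11 over all genes. Members minus all genes was -0.54 in knockdown and -0.37 in control cells in the quantile normalised values, and lay between -0.64 and -0.37 and between -0.44 and -0.20 in the 18 alternatives run for each. Long term knockdown replicate 2 bears on the first of these: without it the members' median in knockdown cells was -0.16, beside 0.25 over all genes.

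The set of short term arrays used as the baseline also mattered. Against only the strong set, the members' median was -0.21 in knockdown cells and -0.06 in control cells, where all genes were at 0.34 and 0.28. Against only the weak set it was -0.61 and -0.44, where all genes were at -0.0080 and -0.04. The members' median lay below that of all genes against either set.

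**Figure D4:**
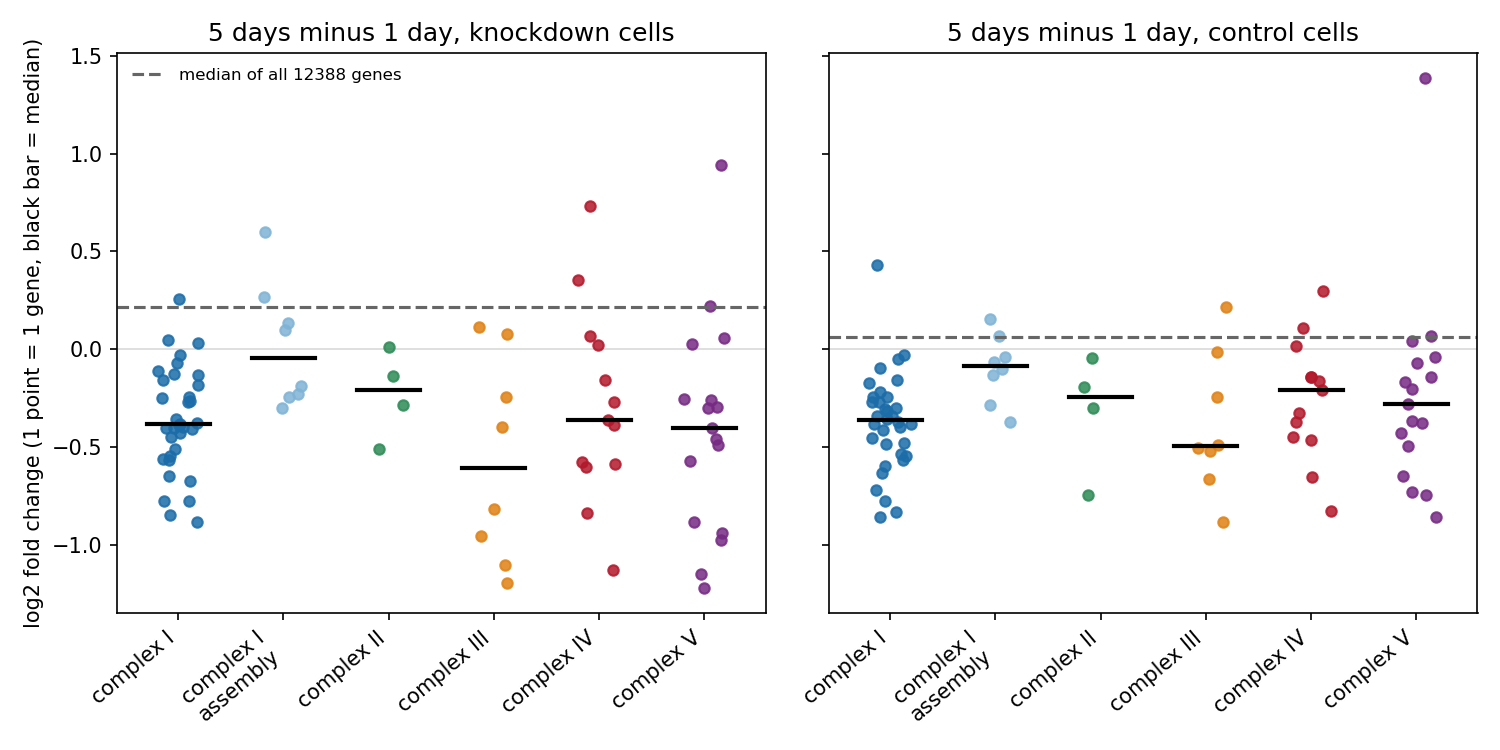
Log2 fold change between 5 days and 1 day of each gene, by complex, in knockdown cells (left) and control cells (right); black bars are medians of a complex and the dashed line is the median of all 12388 genes. The medians of all 6 groups of genes lie below the dashed line in both panels; the high point of complex V is Atp5l at 0.94 and 1.38. With arrays scaled to a common median the members' medians turn positive and still lie below those of all genes.

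By complex, the time difference in knockdown and control cells was -0.61 and -0.50 for complex III, -0.38 and -0.36 for complex I, -0.40 and -0.28 for complex V, -0.36 and -0.21 for complex IV, -0.21 and -0.25 for complex II and -0.05 and -0.08 for the assembly factors. In control cells 33 of 34 complex I genes were lower, beside 46.3% of all genes. In 17 of the 34 (50%) every long term control lay below every short term control, as in 14.3% of all genes. Of the assembly factors 6 of 8 were lower, and in none did the times separate. These values are from quantile normalised data and are to be read against the all-gene medians above.

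Atp5l, which encodes subunit g of the ATP synthase, was the only member past the threshold. In knockdown cells it had levels of 11.42, 10.89 and 11.34 at 5 days and 10.25, 10.26 and 10.31 at 1 day, a fold change of 0.94 ± 0.25 (SE) with an adjusted p of 0.0516. In control cells it had 11.23, 11.44 and 11.59 at 5 days and 9.93, 10.49 and 9.69 at 1 day, means of 11.42 ± 0.18 and 10.04 ± 0.41 (SD, n = 3 each). It rose there by 1.38 ± 0.25 (SE) on the log2 scale, with an adjusted p of 0.0165. All 6 long term arrays lay above all 6 short term arrays. The call in control cells was fragile: leaving out any of 5 of the 6 control arrays gave an adjusted p of 0.0504 to 0.0866, with fold changes of 1.21 to 1.48 on the log2 scale. The exception was short term control 2, without which the adjusted p was 0.0109. With the scanner as a block the adjusted p was 0.0525. Atp5l was measured by 1 probe set. Its fold change was positive in every alternative run in both arms, 0.84 at the lowest, and 2.21 and 2.75 in knockdown and control cells with arrays scaled to a common median.

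Among the members without overlap and with the largest lower values in control cells were Uqcrq, Atp5j2, Ndufs5, Ndufab1 and Cox8a. Cox8a had levels of 10.37, 9.55 and 10.32 at 5 days and 11.10, 10.80 and 10.85 at 1 day in knockdown cells, a fold change of -0.84 ± 0.25 (adjusted p 0.0705). In control cells it had 10.16, 10.35 and 10.45 at 5 days and 11.15, 11.01 and 11.29 at 1 day, a fold change of -0.83 ± 0.25 (adjusted p 0.108). All 6 long term arrays lay below all 6 short term arrays, and neither arm passed the threshold.

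Atp5j2, which encodes subunit f of the ATP synthase, had 11.50, 10.70 and 11.45 at 5 days and 12.46, 11.91 and 12.10 at 1 day in knockdown cells, a fold change of -0.94 ± 0.27 (adjusted p 0.0642). In control cells it had 11.25, 11.42 and 11.64 at 5 days and 12.47, 12.06 and 12.37 at 1 day, a fold change of -0.86 ± 0.27 (adjusted p 0.122). Of its other probe sets, one gave -1.30 in knockdown cells with an adjusted p of 0.0452, while the other had the opposite sign, 0.93 (adjusted p 0.123). The probe sets of this gene therefore disagree in direction.

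Uqcrq, a small subunit of complex III, had 9.78, 7.82 and 9.44 at 5 days and 10.52, 9.98 and 10.14 at 1 day in knockdown cells, a fold change of -1.20 ± 0.43, with replicate 2 the lowest array of the 12. In control cells it had 9.36, 9.63 and 9.63 at 5 days and 10.40, 10.31 and 10.57 at 1 day, a fold change of -0.88 ± 0.43. Ndufs5, an accessory subunit of complex I, gave -0.78 ± 0.46 in knockdown and -0.86 ± 0.46 in control cells. Ndufab1, the acyl carrier protein of complex I, gave -0.67 ± 0.23 and -0.83 ± 0.23. In knockdown cells the c-ring gene Atp5g2 gave -1.15 ± 0.32 and Atp5e -1.22 ± 0.47, and Atp5mpl, a small proteolipid subunit, -0.89 ± 0.30. Uqcrb, another small subunit of complex III, had every long term control above every short term control, by 0.22 ± 0.18 (adjusted p 0.62), and gave -0.053 when its probe sets were averaged. None of these passed the threshold.

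Without long term knockdown replicate 2, whose spread enters the shared fit, the control comparison called Atp5l higher and 2 members lower, Cox8a (adjusted p 0.0331) and Uqcrq (adjusted p 0.0473), with unchanged fold changes; 3.31% of all genes were called higher and 2.09% lower in that fit. Under median scaling Cox8a, Uqcrq, Atp5j2, Ndufs5 and Ndufab1 had positive fold changes in control cells, 0.03 to 0.52, below the all-gene median of 0.96.

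**Figure D5:**
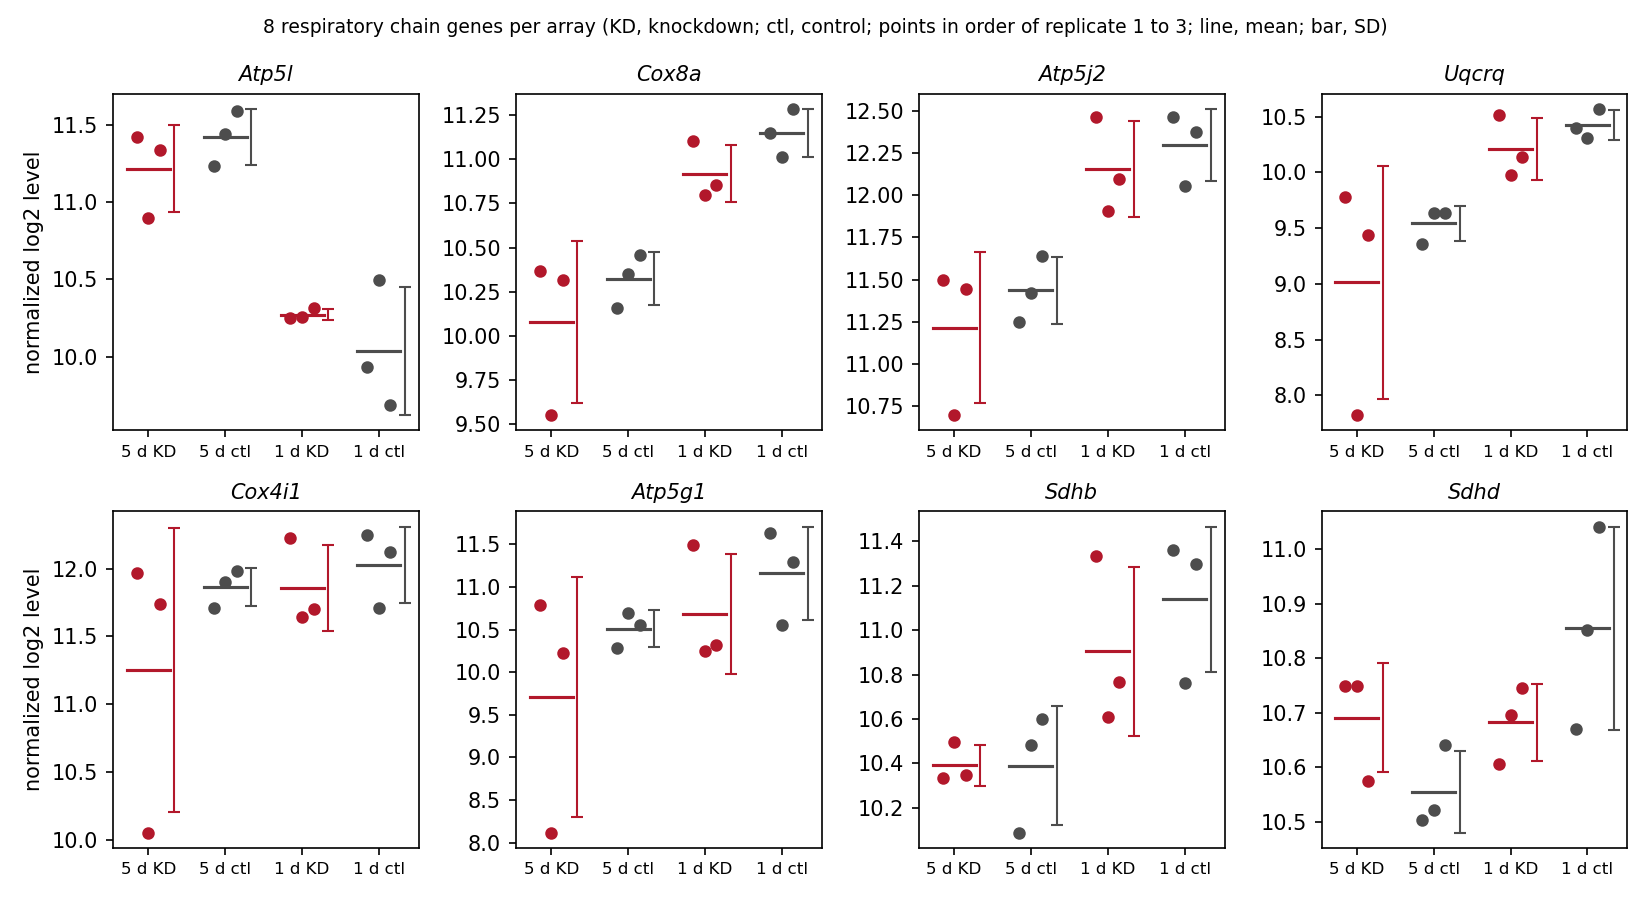
Normalised log2 level of 8 genes per array: long term knockdown and control, then short term knockdown and control. Points run from replicate 1 to 3, lines are means and bars SD (n = 3). Atp5l is higher on all long term arrays and Cox8a, Atp5j2, Uqcrq and Sdhb lower than on the short term arrays of the same arm; Cox4i1 and Atp5g1 show the single low point of long term knockdown replicate 2.

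Among core subunits, Sdhb had 10.33, 10.50 and 10.35 on the long term knockdown arrays and 11.33, 10.61 and 10.77 on the short term knockdown arrays, and 10.09, 10.48 and 10.60 against 11.36, 10.76 and 11.29 on the control arrays. Its fold changes over time were -0.51 ± 0.26 and -0.75 ± 0.26, without overlap in either arm and not past the threshold. Ndufv2 gave -0.40 and -0.60 and Uqcrc2 -0.40 and -0.49, also without overlap. Atp5a1, Atp5b and Atp5c1 gave 0.22, -0.30 and 0.06 in knockdown cells and 0.04, -0.28 and 0.07 in control cells.

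Markers of other cell types differed between the times. All 11 tested microglial markers, of 12 listed, averaged higher at 5 days in both arms, with 0 called in the quantile normalised values. With arrays scaled to a common median 5 in knockdown and 1 in control cells were called higher, beside 48.2% and 42.7% of all genes. The markers' median difference was 2.37 in knockdown and 1.46 in control cells in the quantile normalised values. Their mean log2 level was 10.85, 8.80 and 7.36 on the long term knockdown arrays and 9.97, 7.65 and 8.45 on the long term control arrays. At 1 day it was 7.33, 5.60 and 5.62 on the knockdown arrays and 8.003, 5.79 and 7.76 on the control arrays. The 14 tested endothelial and pericyte markers, of 15, had 0 called and mean levels of 6.88 to 10.06 in the long term knockdowns, 7.001 to 9.44 in the long term controls, 6.70 to 7.32 in the short term knockdowns and 6.75 to 7.499 in the short term controls. Of 5 intermediate progenitor markers 3 were called lower in each arm, among them Eomes at -2.37 in knockdown cells (adjusted p 0.000821) and -1.69 in control cells (adjusted p 0.00728), and at -1.33 (adjusted p 0.0161) and -0.57 (adjusted p 0.272) with arrays scaled to a common median. Under that scaling the list's median in control cells was 0.07, with 3 of 5 higher. Aqp4, Gfap, Slc1a3 and Ckm, named next, kept their signs in both arms under it. Of 3 tested astrocyte markers of 4 listed, Aqp4 rose by 2.49 in knockdown cells (adjusted p 0.0084) and 2.57 in control cells (adjusted p 0.0083), and Gfap by 2.80 in control cells (adjusted p 0.0423). Of 9 apical progenitor markers 4 were higher and 5 lower in each arm. Slc1a3 was the one called, higher in knockdown cells (1.20, adjusted p 0.0381). Under median scaling 6 of 9 were higher with 3 called in knockdown cells, and 8 with 4 called in control cells. There 48.2% and 42.7% of all genes were called higher. Of 10 markers of postmitotic neurons 0 were called. Under median scaling all 10 were higher and 4 called higher in each arm, beside 48.2% and 42.7% of all genes in knockdown and control cells. The markers' medians there were 1.29 in knockdown and 1.51 in control cells, beside 1.04 and 0.96 over all genes. Of the erythroid list 0 of 4 genes on the array passed the filter, and of the striated muscle list 1 of 8, Ckm, did, at -2.91 over time in knockdown cells (adjusted p 0.0469). The part of these shifts in the respiratory chain values was not tested.

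Genes that build or supply the chain had no member past the threshold in the quantile normalised values. The 33 tested assembly factors outside the Nduf names, such as Surf1 and the Sco proteins of complex IV, had medians of 0.01 at 5 days and -0.33 at 1 day for knockdown against control, and 0.08 and -0.22 over time in knockdown and control cells, with 0 called. The 12 genes of cytochrome c and coenzyme Q synthesis had medians of -0.02, -0.08, -0.07 and -0.17 in the same order, again with 0 called. Cycs, which encodes cytochrome c, gave -0.48 and -0.47 over time in knockdown and control cells. The 12 citric acid cycle genes had medians of 0.03, -0.24, 0.02 and -0.16, with 0 called. With arrays scaled to a common median 48.2% and 42.7% of all genes were called higher over time in knockdown and control cells. There 14 and 9 of the 33 assembly factors and 8 and 7 of the 12 carrier and coenzyme Q genes were called higher. Of the 12 citric acid cycle genes 7 and 7 were. The medians of these lists there, in that order, were 0.90 and 0.79, 0.97 and 0.89, and 1.20 and 1.06, beside 1.04 and 0.96 over all genes.

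Regulators of mitochondrial biogenesis were mixed, with 6 of 17 higher and 11 lower over time in each arm. Tfb2m, a mitochondrial transcription factor, was the one called, at -0.82 in knockdown cells (adjusted p 0.0425). Nrf1, which encodes NRF-1, gave -1.20 and -0.75 over time in knockdown and control cells, and Gabpa 0.76 and 0.76 with adjusted p values of 0.0507 and 0.0733. Yy1 gave 0.12 and -0.24. Nrf1, Gabpa and Yy1 did not pass the threshold in either arm. With arrays scaled to a common median 13 and 15 of 17 were higher in knockdown and control cells. In each arm 8 were called higher, beside 48.2% of all genes in knockdown and 42.7% in control cells. Tfb2m then had the opposite sign, 0.41 in knockdown and 0.72 in control cells, below the all-gene medians there.

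Glycolysis, the other route to ATP, had 10 of 14 tested genes lower at 5 days than at 1 day in knockdown cells and 9 of 14 in control cells, with medians of -0.35 and -0.52. With arrays scaled to a common median these were 0.58 and 0.44, also below the all-gene medians. For knockdown against control its medians were 0.02 at 5 days and -0.14 at 1 day. Ldha, which makes lactate from pyruvate, fell in knockdown cells (-0.95, adjusted p 0.0382) and in control cells (-1.27, adjusted p 0.0153), and gave -0.27 and -0.53 under median scaling, past the threshold in neither. Pfkp, the platelet form of phosphofructokinase, rose by 1.60 in knockdown cells (adjusted p 0.0421) and by 2.22 under median scaling (adjusted p 0.000925).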

How the data were processed

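RNA was isolated with a Qiagen total RNA kit and biotin labelled with the 3′ IVT Express kit, per the labels' protocols. The deposited table holds 1 intensity per probe set and array on a linear scale; how the authors summarised and scaled these intensities could not be read from the labels or headers. The instrument records deposited per array (EXP files, other values) gave chip lot, station and scanner, per the file headers.

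Intensities were quantile normalised over the 12 arrays, 16 was added and log2 taken, so fold changes of dim probe sets are understated. The upper 60% of probe sets by mean (27022) were kept. limma 3.58.1 in R 4.3.3 fitted the 4 groups together without blocks (lmFit, eBayes, 8 residual degrees of freedom), and p-values were adjusted by Benjamini-Hochberg over all kept probe sets. Each gene is given by its brightest kept probe set. Depth does not apply to arrays, and 3 arrays a group limit the precision. The script was tested on simulated data. Of the platform's probe sets, 34945 had 1 gene symbol, 932 several and 9160 none. For 34741 of the 34945 the current symbol was looked up by Entrez ID. The 10 probe sets with several symbols including a member were left out.

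Named genes are, by rule, members past the threshold or without overlap of largest change (up to 5 each way and comparison), the complex II genes, isoform pairs and core subunits; a gene on that list is not reported here. Others, such as those lowest on long term knockdown replicate 2, were chosen after their values were seen. The members and all lists were chosen with earlier results of these data known. Alternatives changed the normalisation, pseudocount, filter, probe set, blocks, weights and arrays used.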

Additional observations from a re-analysis of the deposited data

How the results depend on the processing

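Both knockdown comparisons at 5 days and 1 day called 0 members under every alternative run except array weights. Array weights, whose estimates did not converge (0.00157 for long term knockdown 3 to 35.1 for long term control 2), called 5 members higher and 62 lower at 1 day, beside 22.6% and 55.2% of all genes, and 0 at 5 days. They called 6 higher and 4 lower for the difference of the knockdown effects, with a median of 0.23 (27.9% and 10.5% of all genes), and 3 higher and 9 lower over time in knockdown (34.01% and 15.2%) and 4 and 63 in control cells (31.9% and 35.9%). The members' medians over time changed sign with the scaling. With arrays scaled to a common median, members called higher were 19 in knockdown and 20 in control cells (48.2% and 42.7% of all genes), with medians of 0.66 and 0.76. There Uqcrq gave 0.067, Atp5g2 0.022 and Atp5mpl 0.20 in knockdown cells, and Uqcrq 0.49, Atp5j2 0.032, Ndufs5 0.49, Ndufab1 0.46 and Cox8a 0.52 in control cells. With no normalisation 50 and 58 were called higher, with medians of 0.81 and 0.91, beside 62.4% and 60.3% of all genes. There Uqcrq gave 0.21, Atp5g2 0.17, Atp5j2 0.067 and Atp5mpl 0.35 in knockdown cells, and Uqcrq 0.64, Atp5j2 0.19, Ndufs5 0.64, Ndufab1 0.61 and Cox8a 0.67 in control cells. Quantile normalisation forces equal distributions on arrays whose intensities differed; other causes were not tested. In knockdown cells over time a pseudocount of 64 called 1 member higher (Atp5l; 6.11% of all genes), and the upper 40% of probe sets, where fewer are tested, 1 higher (Atp5l) and 3 lower (Atp5j2, Atp5g2 and Cox8a), beside 8.90% and 3.60% of all genes. Averaging a gene's probe sets called 1 member lower in each arm (Ndufab1; 2.20% of all genes in knockdown and 1.34% in control cells), with Atp5a1 at -0.067 in knockdown and Uqcrb at -0.053 in control cells. The scanner block called 0 members higher over time in control cells, beside 0.775% of all genes. With only the short term arrays of the strong set, 3 were called higher and 2 lower in knockdown cells (32.3% and 13.3% of all genes), and 1 higher (Atp5l) and 1 lower (Cox7b2) in control cells (17.8% and 7.28%), where the median was -0.061; that choice was added after seeing the data. Leaving out 1 control array gave 0 to 1 members higher over time in control cells, beside 0.581% to 1.78% of all genes. Leaving out 1 knockdown array gave 0 to 2 members higher and 0 to 1 lower over time in knockdown cells. The shares of all genes there were 0.969% to 23.3% higher and 0.444% to 7.52% lower. The 2 higher and 1 lower came without short term knockdown 1, where 23.3% and 7.52% of all genes were called.

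The correlations between arms do not settle whether replicate numbers pair the samples. Deviations of same-numbered arrays correlated at -0.11, -0.01 and 0.09 at 5 days and 0.92, 0.90 and -0.43 at 1 day. At 1 day both arrays numbered 1 were of the weak set and both numbered 2 of the strong set. For these, pairing and set cannot be told apart. Short term knockdown 3 and control 2, both of the strong set, correlated at 0.87. The fit with a replicate block called 1 member higher (Atp5l) and 1 lower (Atp5j2) over time in knockdown cells and 1 higher in control cells. Over all genes it called 15.1% higher and 4.53% lower in knockdown cells and 5.43% and 2.56% in control cells. Signal limits the 6 members that did not pass the filter.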

Other observations

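A probe set of Ndufs8 that is not its brightest gave a time difference unlike that of the gene's other probe sets. This probe set had deposited intensities of 2632, 338 and 2203 on the long term knockdown arrays and 2094, 2133 and 2591 on the long term control arrays. At 1 day it had 36.0, 11.8 and 9.01 on the knockdown arrays and 21.8, 18.4 and 32.3 on the control arrays. Its log2 fold change over time was 4.80 in knockdown cells (adjusted p 0.00292) and 5.34 in control cells (adjusted p 0.00158), where the brightest probe set of Ndufs8 gave -0.39 and -0.37. What this probe set reads at 1 day was not tested. Over the 45 genes with several tested probe sets, all probe sets had the same sign over time in 25 genes in knockdown cells and 31 in control cells, and in 30 and 35 genes for knockdown against control at 5 days and 1 day.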
